A study of Danio rerio with 2 samples.

Results

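Among the sorted craniofacial cells of juvenile zebrafish, 85 of 4062 cell barcodes carried transcripts of 2 homeostatic chemokines together, ccl25b and cxcl12a, with little of the cartilage matrix gene matn1. A barcode was counted as such a cell where it held at least 2 unique molecular identifiers (UMIs) of ccl25b, at least 1 of cxcl12a and fewer than 30 matn1 UMIs per 10000 UMIs of the barcode. The wild-type (WT) library gave 37 such cells of 2057, or 1.8% (exact binomial 95% interval 1.27 to 2.47%). The mutant library gave 48 of 2005, or 2.39% (1.77 to 3.16%). The cells were thus chosen by their measured levels of ccl25b, cxcl12a and matn1, which are given below only to describe them.

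The study profiled single cells of the craniofacial cartilage in 1 WT library and 1 library from animals homozygous for the el802 allele of nkx3.2, which encodes a homeodomain factor of the jaw joint. Fish of both libraries carried the transgenes Tg(fli1a:EGFP)y1 and Tg(sox10:DsRed)el10, and the live cells positive for both reporters had been sorted. The sample characteristics give 21 days post fertilization (dpf) for WT and 22 for the mutant, so genotype and 1 day of age cannot be told apart. Each genotype is a single library with no animal recorded per cell. The genotypes therefore cannot be tested against each other. Each interval below is a 95% interval of counting error and leaves out variation between cells, animals or captures.

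Chemokines are small secreted proteins that guide migrating cells through receptors on the cell surface. Cxcl12 acts through Cxcr4 and draws or retains blood stem cells, germ cells and neural crest derivatives, and Ccl25 acts through Ccr9, best known for attracting lymphocyte precursors to the thymus. In mammals, cells that release much Cxcl12 include reticular stromal cells of the bone marrow and cells around blood vessels. In the chosen zebrafish cells, no UMI of ccr9a, ccr9b, cxcr4a or cxcr4b was counted in either library.

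The cells held 198872 UMIs in WT and 278191 in the mutant. The median was 5041 UMIs per cell in WT (2102 to 10687) and 5372.5 in the mutant (2124 to 14786), with medians of 1031 and 965 genes. Other barcodes under the same matn1 limit, called matn1-low here, had medians of 4487 UMIs in 863 WT barcodes and 5109.5 in 918 mutant barcodes, and matn1-high barcodes had medians of 7406 in 1157 and 9422 in 1039. The libraries shared 4 barcode sequences, and 1 of them belonged to a chosen cell. Scrublet called 3 WT and 9 mutant doublets, of which 0 were chosen cells; doublets of like cells may remain uncalled.

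The targeted gene was counted first. The chosen cells held 6 nkx3.2 UMIs in 3 WT cells, or 30.2 UMIs per 1000000 of the cell set (CPM), and 3 UMIs in 3 mutant cells, or 10.8 CPM. The mutant-to-WT ratio was 0.357 (0.0578 to 1.67). Other matn1-low cells held 50.3 and 31.5 CPM and matn1-high cells 43.8 and 47.8 CPM. The kit reads the 3′ end of a transcript, and where el802 lies in the gene is not stated in the sources used here, so these counts check neither label.

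ccl25b, which chose the cells, ranged from 2 to 276 UMIs per WT cell with a median of 12, and from 2 to 234 per mutant cell with a median of 20. Relative to depth the median was 19.6 UMIs per 10000 in WT and 44.4 in the mutant, and the ranges, 2.71 to 414 and 1.35 to 471, overlapped almost entirely. cxcl12a ranged from 1 to 64 UMIs per cell in WT with a median of 4, and from 1 to 65 in the mutant with a median of 8. The highest matn1 level was 7.85 per 10000 in WT and 28.8 in the mutant. That mutant cell held 33 UMIs of matn1, 36 of col2a1a, the main cartilage collagen, and 20 of mia among 11477 UMIs.

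The borders of the rule passed close to many cells. Exactly 2 ccl25b UMIs were held by 4 WT and 7 mutant cells inside it, and 7 WT and 14 mutant barcodes just outside held exactly 1. A further 22 WT and 25 mutant matn1-low barcodes had at least 2 ccl25b UMIs and no cxcl12a UMI, and 13 and 16 of them had 4 ccl25b UMIs or more. The matn1 limit left out 0 WT and 3 mutant barcodes, which had 43.8 to 119 matn1 UMIs per 10000. Conversely, 107 WT and 122 mutant matn1-low barcodes had cxcl12a without ccl25b. At least 10 ccl25b UMIs were seen in 20 of the 37 WT and 33 of the 48 mutant cells.

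The chosen cells held most of the ccl25b message of both libraries, 81.3% of its UMIs in WT and 85.1% in the mutant, but under 50% of that of cxcl12a, 48.8% and 47%. Among genes the rule did not use, sfrp1b, a secreted Wnt-binding protein, had 63.3% and 58.7% of its UMIs in these cells. The chosen cells also held 40.7% and 36.8% of krt94, a keratin gene, and 29.9% and 23.9% of cxcl12b, the paralog of cxcl12a. For rgs5a, a regulator of G-protein signalling known from pericytes, the share was 14.8% and 18%. These shares come from 1.8% and 2.39% of the barcodes. sfrp1b and krt94 were named for their high ratios in these cells, so large shares were favoured by that choice and are no support. The same holds for high ratios of other genes named for them below, mdkb and asip2b among them.

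cxcl12b stood at 870 CPM in the chosen WT cells (interval 745 to 1010) and 546 CPM in the mutant cells (463 to 640). Other matn1-low cells held 87.8 and 72.9 CPM and matn1-high cells 2.56 and 5.77 CPM, so that the ratio to the other matn1-low cells was 9.91 (8.23 to 11.9) in WT and 7.5 (6.19 to 9.04) in the mutant. Per cell, the level ran from 0 through a median of 3.59 to 44 per 10000 in WT and from 0 through a median of 0 to 47.8 in the mutant. The ranges overlapped, and the gene was counted in 21 WT and 16 mutant cells. With every cell thinned to 3000 UMIs, which left 32 WT and 41 mutant cells, the shares with a cxcl12b UMI were 59.4% (40.6 to 76.3%) in WT and 34.1% (20.1 to 50.6%) in the mutant. The same shares were 8.32% and 8.05% in other matn1-low cells and 0.737% and 0.992% in matn1-high cells. The matn1-high cells serve here as an assumed background of free RNA, which was not measured.

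By the smaller of its 2 library ratios, sfrp1b stood farthest above other matn1-low cells among genes with at least 100 UMIs in the chosen cells. It reached that minimum only through its high level in these cells, so its rank describes the gene and supports nothing. Its levels were 347 CPM in WT cells (270 to 439) and 194 CPM in mutant cells (146 to 253), against 7.81 and 4.79 CPM in the other matn1-low cells. The ratios were 44.4 (29.1 to 69.1) and 40.5 (25.2 to 66.4). Per cell its level ran from 0 through a median of 1.42 to 22.3 per 10000 in WT and from 0 through a median of 0 to 16.1 in the mutant, and 21 cells of either library held it. After thinning, 46.9% of WT and 36.6% of mutant cells had a UMI, against 1.61% and 1.92% of other matn1-low and 0.276% and 0.298% of matn1-high cells.

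Of the 6 genes given as markers of these cells, 4 took no part in the rule, and they did not mark every cell. None of the 4 (cxcl12b, rgs5a, angptl7 and crip1) was seen in 5 WT and 11 mutant cells. Exactly 1 was seen in 10 and 16 cells, 2 in 9 and 13, 3 in 11 and 6, and all 4 in 2 and 2. rgs5a was counted in 13 WT and 15 mutant cells, at 261 and 262 CPM, against 60.9 and 52.2 CPM in other matn1-low cells. A single WT cell held 48.1% of the WT rgs5a UMIs, and without the highest cell of each library the log2 ratio of mutant to WT was 0.67 in place of 0.01.

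**Figure D1:**
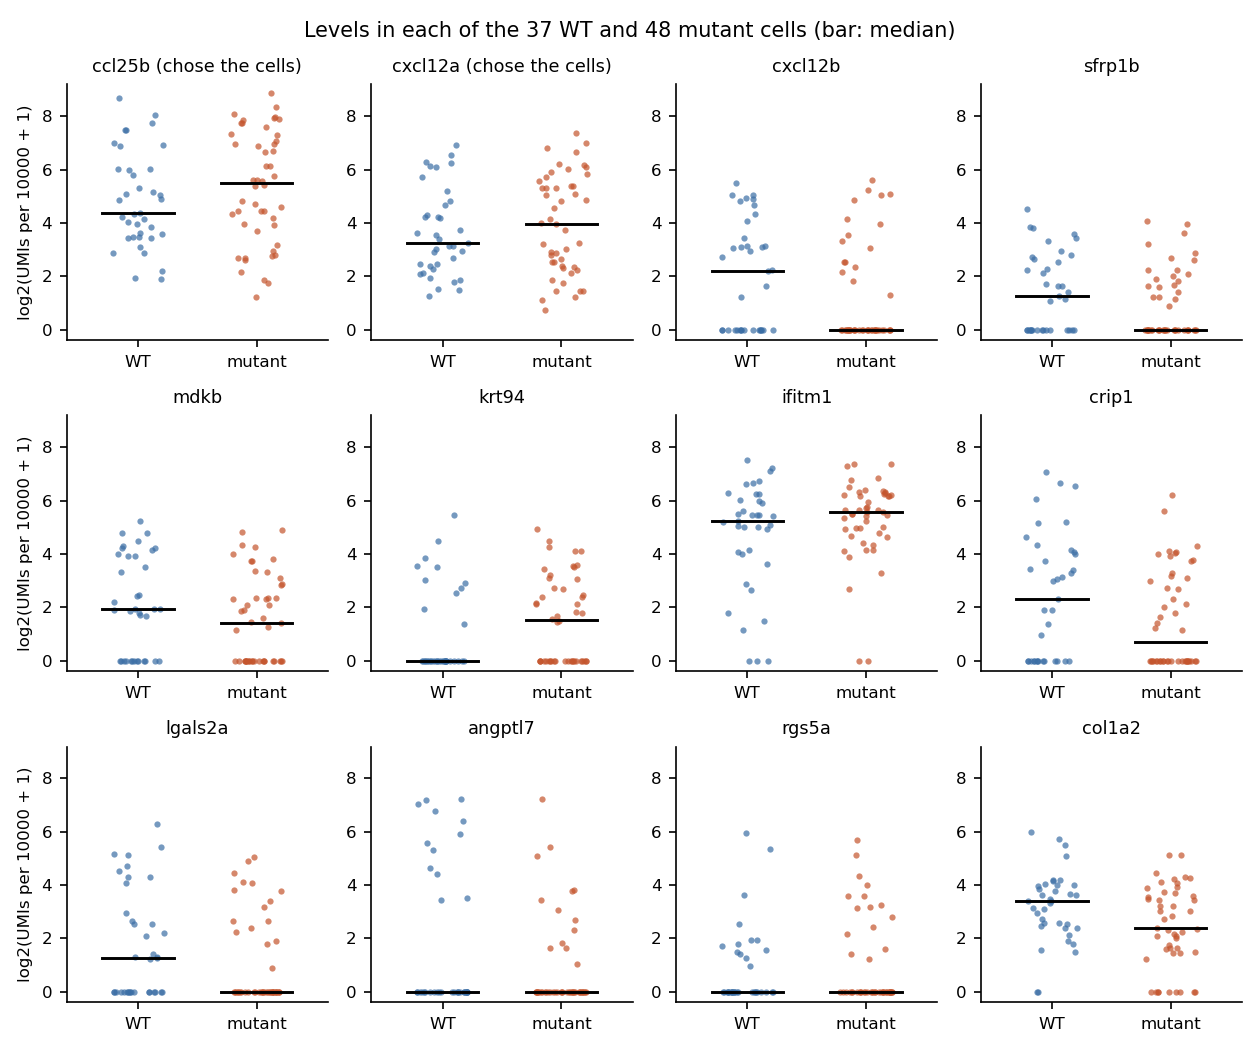
Level of 12 genes in each chosen cell of the WT and mutant libraries, as log2 of UMIs per 10000 plus 1; each point is a cell and each bar the median over the 37 WT or 48 mutant cells. ccl25b and cxcl12a chose the cells, ifitm1 was seen in 34 and 46 cells, and for most of the others many cells of both libraries lie at 0.

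crip1 and angptl7 were the markers with the largest distance between libraries. crip1, a small LIM-domain protein, stood at 1680 CPM in WT cells (1500 to 1870) and 633 CPM in mutant cells (543 to 733), in 23 and 24 cells. Other matn1-low cells held 169 and 37.8 CPM, a WT-to-mutant order shared with the chosen cells. angptl7, a secreted angiopoietin-like protein, stood at 1750 CPM (1580 to 1950) in 12 WT cells and 417 CPM (345 to 500) in 13 mutant cells. It also reached 301 and 131 CPM in other matn1-low cells, so the ratio to them was 5.82 in WT and 3.18 in the mutant. With every cell thinned to 3000 UMIs, 28.1% of WT (13.7 to 46.7%) and 19.5% of mutant cells (8.82 to 34.9%) had an angptl7 UMI. Other matn1-low cells had 17.4% and 12.6%, which lie within these intervals. A single mutant cell held 30.2% of the angptl7 UMIs of the mutant cells. In mutant cells that met the rule after thinning to 3000 UMIs the log2 ratio of angptl7 to other matn1-low cells was 0.71, under 2-fold.

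The label of these cells as stromal was compared with marker lists. Of 32 stromal and reticular markers in the files, 5 had no UMI in the cells of either library, and the summed level of the list was 1260 CPM in WT cells and 1230 CPM in mutant cells, against 1080 and 829 CPM in other matn1-low cells. Its most abundant members included twist1a, a mesenchymal transcription factor, at 272 and 306 CPM. pdgfra, a receptor of many fibroblasts, was seen in 9 and 14 cells at 55.3 and 61.1 CPM. Of 4 members with enough UMIs to be compared, 1 was at least 2-fold higher than in other matn1-low cells in both libraries and 1 lower. Over all such genes 9.48% were higher and 8.34% lower. The higher member was dcn, decorin, given below with the fibrous matrix genes. As a sum, this list set the chosen cells little apart from the other matn1-low cells. The chosen cells are therefore described here by their chemokines.

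Markers of contractile mural cells were seen in part. Of 25 mural and contractile markers, 17 were seen and 8 had no UMI in either library, among them acta2, notch3, abcc9, ndufa4l2a and desma. PDGFRB had 1 UMI in WT and 0 in the mutant. The share of all genes at 0 in these cells is not given here, and genes of low level can be at 0 in so few cells. The count therefore does not show that mural cells were absent. The summed level was 1410 and 1560 CPM against 1390 and 864 CPM in other matn1-low cells, and rgs5a, its paralog rgs5b at 236 and 324 CPM, and the widely used genes tpm1 and myl9b made up much of it. Of 8 members with enough UMIs to be compared, 1 was at least 2-fold higher than in other matn1-low cells in both libraries and 1 lower. Over all such genes 9.48% were higher and 8.34% lower. The median log2 ratio of the 8 was -0.14 in WT and 0.44 in the mutant. tagln, an actin-binding protein of smooth muscle, stood at 80.5 and 71.9 CPM against 22.5 and 7.7 CPM, from too few WT UMIs to be compared.

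Markers of the other cell types that the sort could hold were at 0 to differing degrees. No UMI was counted for 18 of 25 endothelial markers, 23 of 25 leukocyte markers, 10 of 12 erythroid markers, 13 of 18 pigment markers, 19 of 23 skeletal muscle markers and 11 of 17 Schwann and glial markers. The share of all genes at 0 in these 85 cells is not given here. Genes of low level can be at 0 in so few cells, so these counts do not show that a cell type was absent. The same limit holds for the members at 0 of every other list in this report. The summed level of the Schwann and glial list was nonetheless 1220 CPM for WT and 1040 CPM for the mutant, against 796 and 663 CPM in other matn1-low cells, and pmp22a, a membrane protein of myelinating and other cells, made up most of it at 1030 and 830 CPM. fli1a, the source of the GFP promoter, had 11 UMIs in 9 cells of either library, and sox10, the source of the DsRed promoter, had 8 and 12 UMIs. Of 16 bone markers 9 were at 0, runx2a, runx2b and ifitm5 among them. Of 20 epithelial markers 11 were at 0, epcam, cdh1 and tp63 among them, although krt8 reached 2500 and 2160 CPM and the list as a whole 4950 and 5070 CPM, against 6330 and 5170 CPM in other matn1-low cells.

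Against all other barcodes, 131 of 794 measured genes (16.5%) were at least 2-fold higher in the chosen cells in both libraries, and 85 (10.7%) were at least 2-fold lower. A gene counted as measured where at least 20 UMIs were seen or expected in the chosen cells of each library. Of the 131 genes, 107 were measured only through their UMIs in the chosen cells and had to be higher, so the 2 counts are no measure of balance. Scaling by TMM, a trimmed mean of gene ratios, moved all log2 ratios by -0.48 in WT and -0.34 in the mutant and turned the split to 97 higher and 159 lower genes. Most other barcodes are cartilage cells, so the closer comparison is with the other matn1-low cells of the same library.

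Against those cells, 75 of 791 measured genes (9.48%) were at least 2-fold higher in both libraries and 66 (8.34%) at least 2-fold lower. Here 53 of the 75 were measured only through the chosen cells. TMM scaling moved the log2 ratios by 0.04 in WT and -0.02 in the mutant. Against the matn1-low cells with the least cartilage signal, under 5 matn1 UMIs per 10000, the counts were 49 higher and 58 lower.

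**Figure D2:**
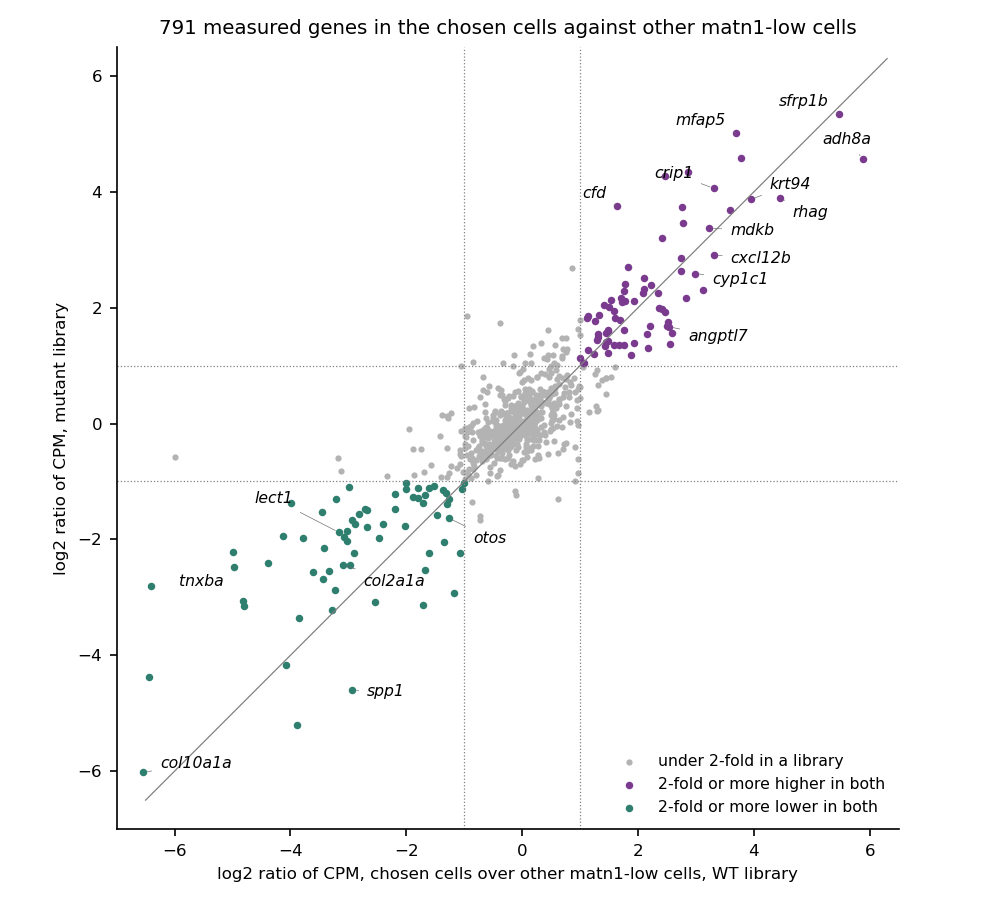
Log2 ratio of CPM in the chosen cells over other matn1-low cells in the WT library (x axis) and in the mutant library (y axis), for the 791 measured genes; dotted lines mark a 2-fold difference and the solid line equal ratios. Purple points are the 75 genes at least 2-fold higher in both libraries and green points the 66 at least 2-fold lower, with sfrp1b at the upper right.

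Among secreted and surface proteins, mdkb, the heparin-binding growth factor midkine, stood at 779 CPM in WT cells and 464 CPM in mutant cells, 9.4 and 10.3 times its level in other matn1-low cells. asip2b, a secreted agouti-family antagonist of melanocortin receptors, stood at 251 and 381 CPM, or 7.25 and 20.2 times. cfd, complement factor D, stood at 810 and 1320 CPM, or 3.1 and 13.5 times, with 34.8% of its mutant UMIs in 1 cell. None of the 3 was seen in every cell: mdkb was seen in 24 WT and 27 mutant cells, asip2b in 14 and 20, and cfd in 15 and 22. asip2b and mdkb were often seen in the same cells: every WT cell with asip2b held mdkb (14 cells) and 18 of the 20 mutant cells did. Many pairs of genes were counted, and an association was not tested.

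ifitm1, an interferon-induced membrane protein, was seen in 34 of 37 WT and 46 of 48 mutant cells. Its level was 4320 CPM in WT cells (4040 to 4620) and 4920 CPM in mutant cells (4670 to 5190), against 851 and 1030 CPM in other matn1-low cells and 29.8 and 33.1 CPM in matn1-high cells. The median cell held 36.5 UMIs per 10000 in WT and 46.8 in the mutant. After thinning, 81.2% of WT and 97.6% of mutant cells had a UMI, against 30.4% and 41.1% of other matn1-low and 4.15% and 5.16% of matn1-high cells. Among the matn1-low cells under 5 matn1 UMIs per 10000 the shares were higher, 36.7% and 57.9%. ifitm1 made up most of the antigen presentation and interferon list, whose summed level was 4840 and 5460 CPM.

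Some intermediate filament genes were above their level in other matn1-low cells and some below. krt94 stood at 387 CPM in WT cells (306 to 484) and 446 CPM in mutant cells (371 to 531), 15.5 and 14.6 times other matn1-low cells, and was seen in 11 and 26 cells. krt18b, another keratin gene, stood at 644 and 651 CPM (3.32 and 4.26 times), and vim, vimentin of mesenchymal cells, at 538 and 665 CPM (3.22 and 3.46 times). krt18b and vim were seen in most of the cells, 32 and 43 for krt18b, 28 and 41 for vim. krt18 was lower, at 900 and 719 CPM (0.461 and 0.592 times), and of 6 measured genes of the epithelial list 0 were at least 2-fold higher.

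Matrix genes are given by list. In the list counts that follow, a member measured only through the chosen cells had to be higher there, so counts of higher members describe the list and support nothing, and over all genes 9.48% were higher and 8.34% lower. Of 24 cartilage matrix genes in the files 16 were measured. Of these, 15 were at least 2-fold lower than in other matn1-low cells and 0 higher; the rule limits matn1, a member of that list, so the list is not independent of the rule. col2a1a, a collagen of cartilage, stood at 251 CPM in WT cells and 417 CPM in mutant cells, 0.117 and 0.184 times the other matn1-low cells, and lect1, chondromodulin, at 171 and 449 CPM. Without the mutant cells of 15 or more matn1 UMIs per 10000 the mutant log2 ratios to other matn1-low cells were -4.03 for col2a1a and -3.08 for lect1, and with no matn1 limit they were -0.24 and -0.75. Of 18 basement membrane genes 2 were measured, and both were higher. col4a1, collagen IV, stood at 106 and 82.7 CPM, or 6.86 and 11 times, and nid1a, nidogen, at 176 and 79.1 CPM, or 4.53 and 2.49 times.

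Of 19 microfibril genes 4 were measured, and 3 of them were at least 2-fold higher and 1 lower. mfap5, a microfibril-associated glycoprotein, stood at 151 and 165 CPM against 11.7 and 5.13 CPM, and mfap2 at 754 and 395 CPM against 345 and 164 CPM. Of 34 fibrous matrix genes 10 were measured, of which 3 were at least 2-fold higher and 1 lower, and the summed level of that list was 5620 CPM in WT cells and 3750 CPM in mutant cells, against 5620 and 3840 CPM in the other matn1-low cells. pcolcea, which enhances the cleavage of procollagen, stood at 387 and 474 CPM (5.3 and 9.28 times), and dcn, decorin, at 282 and 230 CPM (3.01 and 3.85 times).

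Of 16 bone genes 2 were measured, and both were at least 2-fold lower. spp1, osteopontin, stood at 126 and 7.19 CPM against 960 and 261 CPM, and 96% of its WT UMIs lay in 1 cell. The summed bone list had a median of 0 per 10000 in the WT chosen cells and in the other matn1-low cells of WT, where the highest barcode reached 1850. Of 26 matrix proteases and inhibitors 9 were measured, of which 0 were at least 2-fold higher and 3 lower, with mmp2, a gelatinase, at 302 and 356 CPM (0.328 and 0.46 times).

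Of 37 genes of the Wnt list 4 were measured, and the 3 secreted inhibitors among them, sfrp1b, sfrp5 and sost, were at least 2-fold higher in both libraries. The fourth was ctnnb1, beta-catenin, at 0.519 and 0.903 times. Beside sfrp1b, sfrp5 stood at 211 and 108 CPM against 47.1 and 37.1 CPM, and sost, the Wnt inhibitor sclerostin, at 181 and 79.1 CPM against 30.3 and 26.9 CPM. The measured BMP and Id genes had 1 of 6 at least 2-fold higher, and the TGF-beta genes 0 of 5 higher and 2 lower. grem2b, a BMP antagonist, had 10 WT UMIs in 4 cells and 5 mutant UMIs in 1 cell, too few to be measured.

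Some genes outside the naming rule, chosen after their values were seen, had wide ratios to other matn1-low cells at low counts. adh8a, an alcohol dehydrogenase, had 35 and 53 UMIs, with log2 ratios of 5.88 in WT and 4.57 in the mutant. rhag, whose mammalian counterpart is an ammonium channel, had 42 and 46 UMIs and log2 ratios of 4.45 and 3.89. slco2b1, an organic anion transporter, had 31 and 52 UMIs and log2 ratios of 2.76 and 3.74.

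Levels were also set beside those of cells with 1 chemokine only. Among matn1-low cells, crip1 stood at 800 CPM in WT cells and 506 CPM in mutant cells where ccl25b was seen at 2 UMIs or more without cxcl12a. With cxcl12a and no ccl25b it stood at 253 and 56.4 CPM, and with neither at 143 and 22.7 CPM. ifitm1 followed the same order in WT, at 2770, 2190 and 559 CPM, and in the mutant, at 2560, 2170 and 773 CPM. The chosen cells lay above all 3 sets for both genes. For crip1 in the mutant, the level with ccl25b alone rests on 63 UMIs, and its counting interval overlaps that of the chosen cells. A single cell held 25% of the crip1 UMIs of the chosen mutant cells.

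sfrp1b was 83.1 and 32.1 CPM in the cells with ccl25b alone, from 8 and 4 UMIs. It was 9.72 and 10.5 CPM in those with cxcl12a alone, and below the chosen cells in each case. krt94 followed with 197 and 88.4 CPM for ccl25b alone and 36.9 and 101 CPM for cxcl12a alone, an order that turned between libraries. rgs5a was 101 and 102 CPM with cxcl12a alone. With ccl25b alone it was 51.9 and 56.2 CPM, from only 5 and 7 UMIs, so the order of these sets is not settled. angptl7 was 748 and 145 CPM with ccl25b alone and 637 and 379 CPM with cxcl12a alone. The ccl25b-alone sets hold 22 and 25 cells, and missed capture of a chemokine cannot be told apart from its absence in them. cxcl18b, another chemokine gene, was higher in those cells, at 2340 and 2220 CPM, against 890 and 1040 CPM in the chosen cells.

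**Figure D3:**
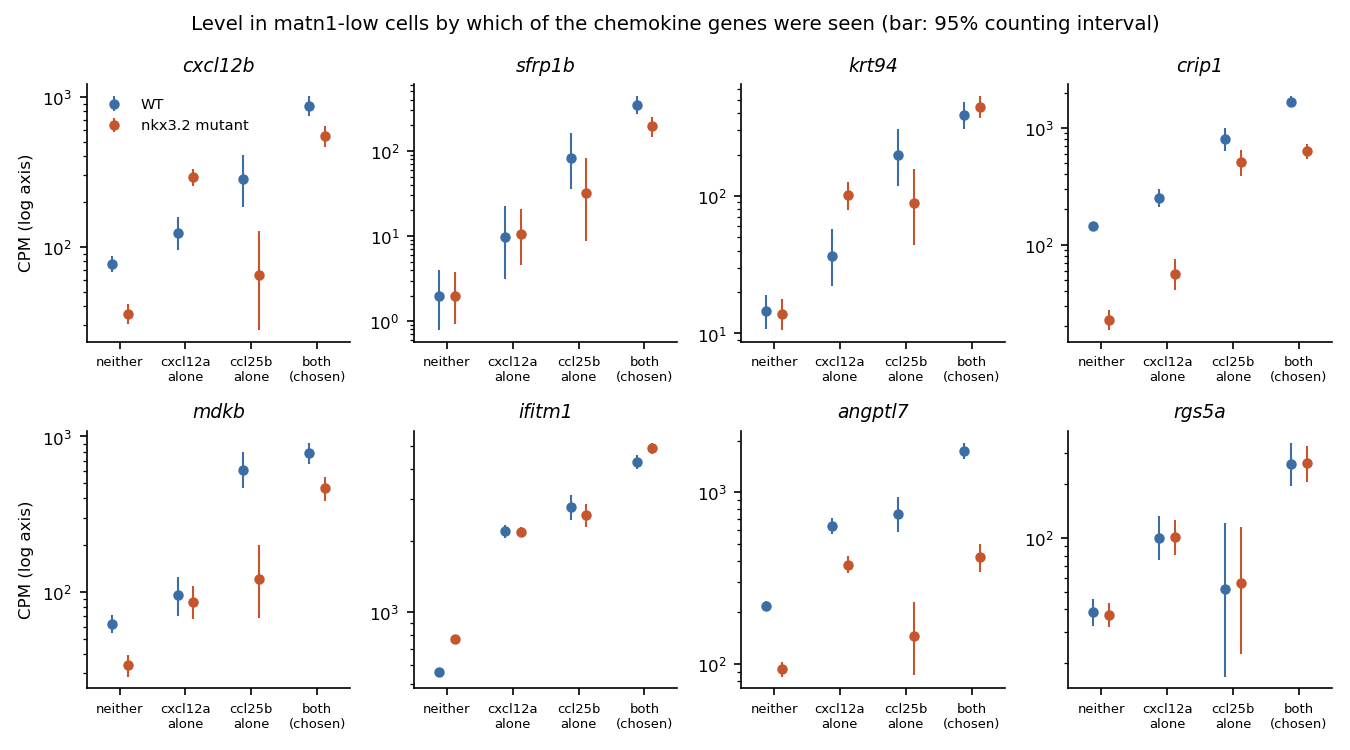
CPM of 8 genes in matn1-low cells with neither chemokine, with cxcl12a alone, with ccl25b alone and with both (the chosen cells), for the WT and mutant libraries. For sfrp1b, krt94, crip1 and ifitm1 the cells with both chemokines stand above the other 3 sets in each library. Their counting intervals overlap those of the cells with ccl25b alone for crip1 in the mutant and, barely, for krt94 in WT.

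Levels relative to depth varied between the cells for genes that the rule did not use. ifitm1 ran from 0 to 184 per 10000 in WT and from 0 to 166 in the mutant, and dcn from 0 to 9.94 and from 0 to 12.7. rbp4, a retinol carrier, was seen in all 37 and 48 cells, from 2.47 to 199 per 10000 in WT and from 7 to 124 in the mutant. crip1 and krt94 were seen together in 7 WT and 18 mutant cells and rgs5a and crip1 together in 11 and 8.

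The summed level of immediate early genes, which include fos and jun family genes that cell dissociation is known to raise, ran from 22.9 through a median of 73.4 to 711 per 10000 in WT and from 6.94 through 74.9 to 309 in the mutant. Across cells its Spearman correlation with the UMIs per cell was -0.30 over 37 WT and -0.63 over 48 mutant cells, which share library and capture. Heat shock genes, a list added after values were seen, had medians of 117 and 106 per 10000. Their part in the results was not tested.

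Between libraries, 1371 genes were measured in the chosen cells, here with at least 20 UMIs over the WT and mutant cells together. Of these, 65 (4.74%) were at least 2-fold higher in the mutant library and 135 (9.85%) at least 2-fold lower. The median log2 ratio of mutant to WT was -0.11, with 594 genes above and 777 below 0. The counts of higher and lower list members that follow are to be read beside these counts. TMM scaling, which moved the ratios by 0.08, gave 81 higher and 109 lower genes, and leaving out mitochondrial and ribosomal protein genes from the totals gave 82 and 105. The median over the genes measured in other matn1-low cells was -0.25 and in matn1-high cells -0.04. Each list median below is over the genes measured in its own cell set, so medians set beside each other cover different genes.

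Among the genes named for a low mutant-to-WT ratio, which had at least 100 UMIs, angptl7 had the lowest, at 0.238 (0.191 to 0.294). The ratio was 0.435 in other matn1-low cells and 0.162 in matn1-high cells, so the gene was lower in the mutant library in all 3 cell sets. In cells that met the rule after thinning to 3000 UMIs its log2 ratio was -2.96. Without the highest cell of each library its log2 ratio in the chosen cells was -2.33, against -2.07 with all cells. crip1 had a ratio of 0.377 (0.312 to 0.453), beside 0.224 in other matn1-low and 0.957 in matn1-high cells, and a log2 ratio of -0.81 in cells with 2 or more cxcl12a UMIs, against -1.41. lgals2a, a galectin, stood at 1040 CPM in WT cells and 417 CPM in mutant cells, a ratio of 0.403 (0.318 to 0.508) beside 0.357 in other matn1-low cells. cyp1c1, a cytochrome P450 of the aryl hydrocarbon response, stood at 342 and 126 CPM, a ratio of 0.368 (0.237 to 0.561).

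The cxcl12b level was lower in the mutant cells as well, with a ratio of 0.628 (0.502 to 0.786) and a log2 ratio of -0.22 in cells that met the rule after thinning. So was that of sfrp1b at 0.559 (0.384 to 0.811) and mdkb at 0.595 (0.467 to 0.756). By the levels and ratios given above, each of these genes was also lower in the mutant library in other matn1-low cells. In matn1-high cells cxcl12b was higher in the mutant library. The difference between the cell sets was not tested. For krt94 the ratio was 1.15 (0.859 to 1.55) and for rgs5a its interval was 0.694 to 1.46, and both intervals hold 1. In cells with 2 or more cxcl12a UMIs, however, the log2 ratio of rgs5a was 1.13. ifitm1 had a ratio of 1.14 (1.04 to 1.24).

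Collagen I genes were lower in the mutant library. col1a1a stood at 825 CPM in WT cells and 316 CPM in mutant cells, with per-cell medians of 4.5 and 2.11 per 10000 and overlapping ranges, and a ratio of 0.384 (0.293 to 0.5). col1a2 stood at 1240 and 676 CPM, with a ratio of 0.544 (0.448 to 0.66). Of 17 measured fibrous matrix genes 14 were lower in the mutant and 3 higher, with a median log2 ratio of -0.57. The same list had medians of -1.14 in other matn1-low cells and -0.37 in matn1-high cells.

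Genes of protein folding in the endoplasmic reticulum showed 10 of 12 lower, with a median log2 ratio of -0.27. The list had -1.16 over 34 genes in other matn1-low and -0.81 over 35 genes in matn1-high cells. These medians cover different genes, so they do not show a weaker difference in the chosen cells. serpinh1b, the collagen chaperone, stood at 618 and 252 CPM, a ratio of 0.407 (0.299 to 0.55), close to its 0.393 and 0.387 in the other cell sets. In chosen cells with 2 or more cxcl12a UMIs its log2 ratio was -0.86, just outside that interval. hspa5, the chaperone BiP, stood at 387 and 201 CPM.

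The genes named for a low ratio also included jdp2b, fosb and hsp70l. jdp2b, an AP-1 family repressor, stood at 1750 and 762 CPM, a ratio of 0.435 (0.365 to 0.518), where matn1-high cells had 1.86. fosb stood at 422 and 137 CPM, and hsp70l, a heat-inducible chaperone, at 498 and 176 CPM. All 10 measured heat shock genes were lower in the mutant, 1 of them at least 2-fold, with a median log2 ratio of -0.45, beside -0.52 in other matn1-low and -0.39 in matn1-high cells. Of 24 immediate early genes 14 were lower and 10 higher, with a median of -0.32, where 777 of all 1371 measured genes were lower. hsp70l had 28.3% of its WT UMIs in 1 cell and fosb 20.2%, and the log2 ratio of hsp70l was -0.44 with cells of 1 ccl25b UMI counted in.

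**Figure D4:**
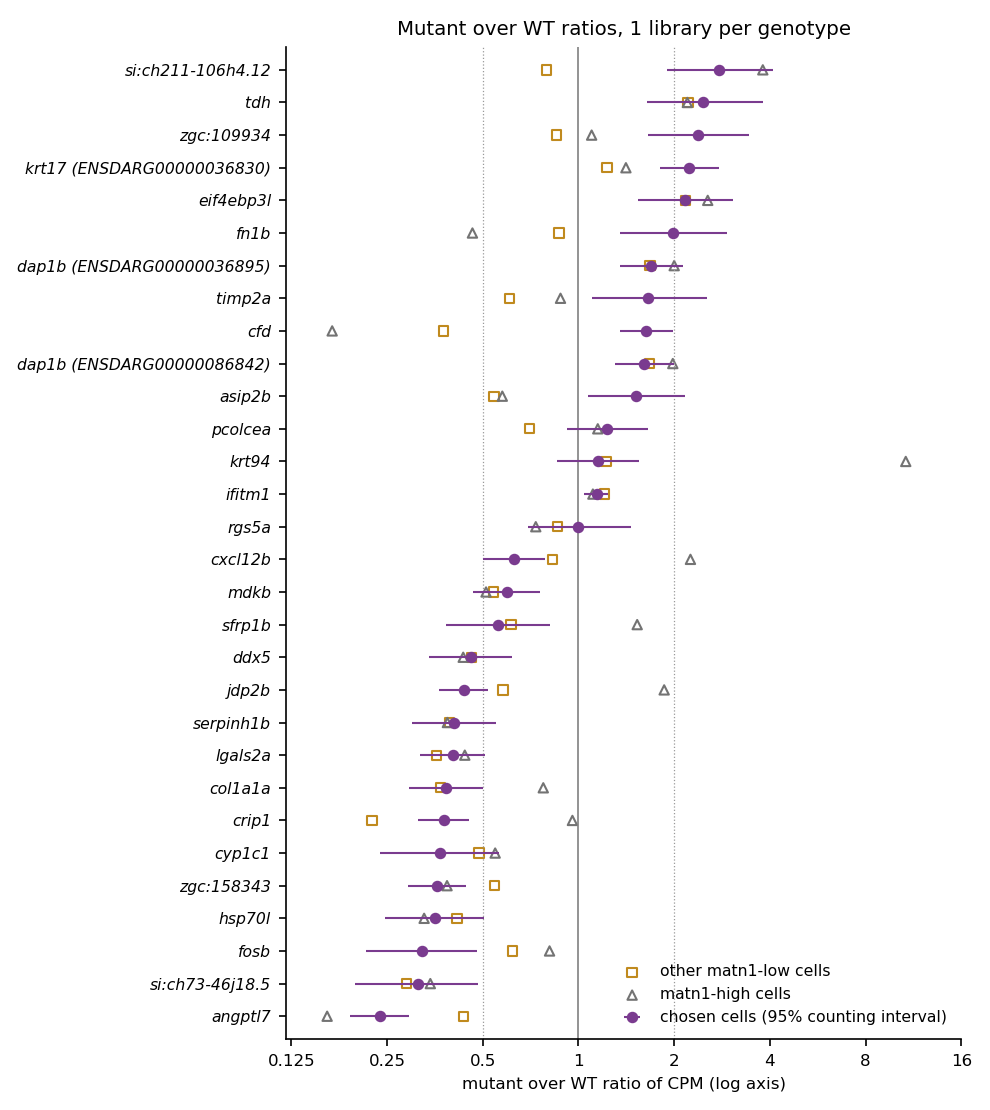
Ratio of mutant to WT CPM on a log scale for named genes in the chosen cells (circles with 95% intervals of counting error), in other matn1-low cells (squares) and in matn1-high cells (triangles). angptl7, crip1, col1a1a and lgals2a lie at 0.403 or less in the chosen cells and krt17 and eif4ebp3l above 2; wu:fj16a03, whose mutant UMIs lie almost all in 1 cell, is left out.

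Some genes were higher in the mutant library in all 3 cell sets. eif4ebp3l, a translation repressor under the control of mTORC1, stood at 236 CPM in WT cells and 510 CPM in mutant cells, a ratio of 2.16 (1.54 to 3.07), beside 2.17 in other matn1-low and 2.55 in matn1-high cells. tdh, a threonine dehydrogenase, stood at 156 and 385 CPM, a ratio of 2.47 (1.64 to 3.81) beside 2.21 and 2.2. Of 9 measured genes that restrain mTORC1 or start autophagy, 7 were higher in the mutant, with a median log2 ratio of 0.63, beside -0.17 in other matn1-low and 0.31 in matn1-high cells. sesn1, sestrin, which was chosen after its values were seen, had 8 WT UMIs in 8 cells and 41 mutant UMIs in 20 cells, or 40.2 and 147 CPM, a ratio of 3.66 (1.7 to 9.05).

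krt17 (ENSDARG00000036830) stood at 583 and 1300 CPM, in 25 and 35 cells, with a ratio of 2.23 (1.81 to 2.77) against 1.23 and 1.41 in the other cell sets; counting cells with 1 ccl25b UMI among the chosen turned its log2 ratio to -0.52. wnt11r, a Wnt ligand, had 7 UMIs in 6 WT cells and 52 in 16 mutant cells, or 35.2 and 187 CPM. Its ratio was 5.31 (2.4 to 13.9) beside 1.05 in other matn1-low cells. The Wnt list as a whole did not share this direction. Of its 9 measured genes 4 were higher in the mutant and 5 lower, with a median log2 ratio of -0.84. At least 2-fold, 1 was higher and 3 were lower. pcna, a replication clamp, was lower in the mutant, at 282 CPM in 12 WT cells and 64.7 CPM in 6 mutant cells, a ratio of 0.23 (0.127 to 0.397). Of 6 measured cell cycle genes 5 were lower in the mutant, where 777 of all 1371 measured genes were lower. Their median log2 ratio was -1.25. The list had medians of -0.44 over 24 genes in other matn1-low cells and -0.07 over 31 genes in matn1-high cells. No UMI was counted for 11 of its 35 members in the chosen cells of either library, mki67 and top2a among them.

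Cartilage matrix genes were higher in the mutant among the chosen cells, 12 of 15 with a median log2 ratio of 0.98, but this rested on a few cells near the matn1 limit. The mutant set held 3 cells with 15 to 30 matn1 UMIs per 10000 and the WT set 0. Without these cells the median was -0.24. In the mutant, 1 cell held 56.5% of the mia UMIs and 1 cell 31% of those of col2a1a. The summed cartilage level had medians of 14.2 per 10000 in WT cells and 12.8 in mutant cells, ranges of 2.14 to 137 and 1.99 to 212, and sums of 1930 and 3470 CPM against 86900 and 59600 in matn1-high cells.

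**Figure D5:**
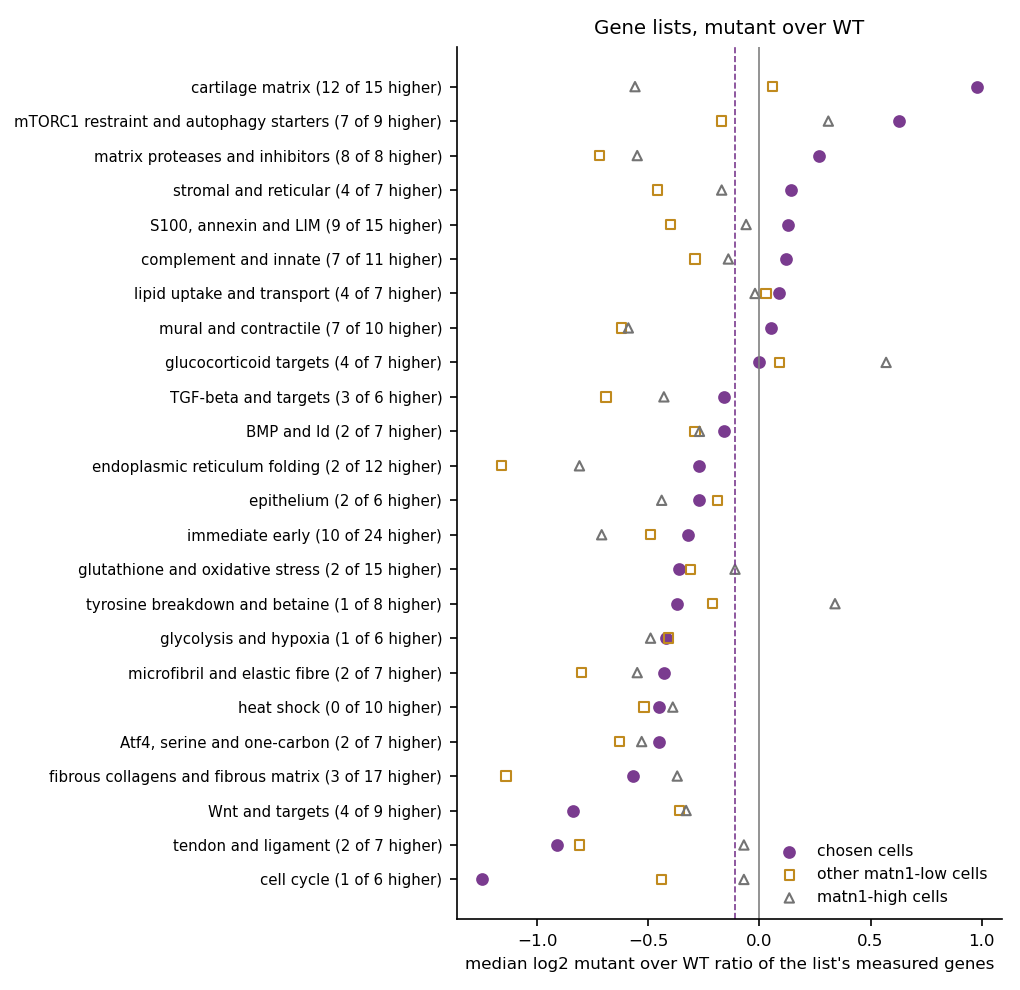
Median log2 ratio of mutant to WT over the measured members of each gene list with at least 6 measured members, in the chosen cells, in other matn1-low cells and in matn1-high cells; the dashed line is the median of all 1371 measured genes in the chosen cells, -0.11. The cell cycle, tendon and Wnt lists lie lowest in the chosen cells and the cartilage matrix and mTORC1 lists highest.

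Several other lists had medians on either side of 0. Over all 1371 measured genes, 594 were higher in the mutant and 777 lower. Mural and contractile genes had 7 of 10 higher in the mutant with a median log2 ratio of 0.05, S100, annexin and LIM genes 9 of 15 higher with 0.13, and complement and innate genes 7 of 11 higher with 0.12. Glutathione and oxidative stress genes had 13 of 15 lower with a median of -0.36, beside -0.31 in other matn1-low cells. Tendon and ligament genes had 5 of 7 lower with -0.91, beside -0.81. All 8 measured matrix proteases and inhibitors were higher with 0.27, 1 of them at least 2-fold. The median of -0.72 in other matn1-low cells is over 15 genes and not over the same 8. timp2a and fn1b, a fibronectin, were among the genes whose ratio lay above 1 in the chosen cells and below 1 in other matn1-low cells.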

How the data were processed

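The authors deposited UMI counts per gene and cell barcode for 1 WT and 1 nkx3.2 mutant library, made with Cell Ranger per the submitters' processing notes; its version and the genome build are not given in the sources used here. Per the labels, the 10x 3′ kit was version 2, and the protocol text gives 21 dpf for both libraries where the characteristics give 21 and 22; the latter were used. The matrices hold 35117 genes, of which 4218 share a symbol and were kept by identifier; 536 symbols came from a RefSeq table. A 3′ tag does not separate overlapping genes, and near-identical paralogs such as the 2 ptgdsb genes may share reads.

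The members and lists were chosen with earlier results of these data known. UMIs were summed over the chosen cells, other matn1-low and matn1-high barcodes of each library and divided by their total, as CPM. Intervals at 95% are exact Poisson for sums, exact binomial (Clopper-Pearson) for shares and exact conditional binomial for ratios. No test was run. A count under 3 was set to 3 for a log2 ratio.

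The design asked for at least 20 UMIs over both cell sets together; on simulated data this let unchanged genes with few expected UMIs pass, so 20 UMIs seen or expected in the chosen cells of each library were required instead, and the designed minimum was kept as an alternative. Named genes had at least 100 UMIs and the highest or lowest ratios (15 and 10 against all other barcodes, 10 and 10 against matn1-low, 12 and 12 for mutant over WT, without mitochondrial, ribosomal protein and chemokine or matn1 genes used in the rule, and for the last without genes under 0.1 of their level in matn1-high barcodes), plus nkx3.2, the 6 markers and up to 4 abundant members of each of 41 lists; the others named, and 2 added lists, were chosen after their values were seen. A gene that the rule names is not reported here. List medians of each cell set are over the genes measured in that set. For shares of cells with a UMI, every cell was thinned to 3000 UMIs, which left out 5 WT and 7 mutant chosen cells. Alternatives were other limits of the rule, scalings, weights, minimums and thinning depths. Python 3.11.15, numpy 2.4.6, scipy 1.17.1, pandas 2.3.3, Scanpy 1.11.5 (Scrublet), R 4.3.3 with edgeR 4.0.16 (TMM factors only) and matplotlib 3.10.9 were used.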

Additional observations from a re-analysis of the deposited data

Results flagged for a closer look

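For 7 of the named genes the mutant-to-WT ratio lay on opposite sides of 1 in the chosen cells and in other matn1-low cells. Their counting intervals did not reach 1 in either. The 7 are not a full count over all genes, and how many genes were looked at is not given here. By its levels, rbp4, given below, also lay on opposite sides of 1. The difference between the cell sets was not tested. For asip2b, the agouti-family gene, the ratio was 1.52 (1.07 to 2.17) in the chosen cells and 0.542 (0.42 to 0.698) in the others. For cfd, complement factor D, it was 1.63 (1.35 to 1.98) against 0.376, and 1 mutant cell held 34.8% of the mutant cfd UMIs. With cells of 1 ccl25b UMI counted in, the log2 ratio of cfd was -0.09. For fn1b, a fibronectin, it was 1.98 (1.35 to 2.94) against 0.869, and for timp2a, a metalloprotease inhibitor, 1.65 (1.1 to 2.53) against 0.607. zgc:109934 had a ratio of 2.37 (1.66 to 3.45) against 0.853 and was seen in 17 WT and 41 mutant cells. si:ch211-251b21.1 went the other way, with 0.813 (0.679 to 0.974) against 1.18 (1.08 to 1.28). The ratio of wu:fj16a03 was 7.15 against 0.434, and 97.5% of its mutant UMIs lay in 1 cell.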

How the results depend on the processing

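No paired analysis was possible because each genotype has 1 library, and no replicate could be left out. The share of barcodes chosen ran from 1.39 to 2.14% in WT and from 1.8 to 3.09% in the mutant over the other limits of the rule. With a minimum of 50 UMIs, 58 genes were higher and 40 lower than in all other barcodes, 33 and 36 than in other matn1-low cells, and 22 and 39 between mutant and WT. With a minimum of 3 UMIs these were 563 and 211, 300 and 194, and 180 and 549. With 20 UMIs over both cell sets together they were 3965 and 211 against all others and 919 and 194 against matn1-low cells, since genes without expected counts then enter. TMM scaling gave 159 lower genes against all others, and a comparison with cells under 5 matn1 UMIs per 10000 gave 49 higher genes. The log2 mutant-to-WT ratio of wu:fj16a03 turned to -2.28 with 3 or more ccl25b UMIs, -0.81 with 2 or more cxcl12a UMIs, -0.47 after thinning and -0.84 without the highest cells; 1 mutant cell holds its counts. That of krt17 (ENSDARG00000036830) turned to -0.52 with 1 or more ccl25b UMIs, and the cartilage matrix median to -0.24 with matn1 under 15 per 10000. otos in the mutant turned to 0.12 against other matn1-low cells with no matn1 limit. The cause was not tested for krt17. Of the alternative values of named mutant-to-WT ratios, 263 stayed within the interval of the reported value, 18 moved outside it and 5 changed direction. Outside their intervals, log2 mutant-to-WT ratios became -0.09 for cfd and -0.44 for hsp70l with 1 or more ccl25b UMIs, -0.81 for crip1 and 1.13 for rgs5a with 2 or more cxcl12a UMIs, -1.03 for fosb with 3 or more ccl25b UMIs, and -0.22 for cxcl12b and -2.96 for angptl7 after thinning. With no matn1 limit the log2 ratio of col2a1a to other matn1-low cells in the mutant became -0.24, and with matn1 under 15 per 10000 -4.03. Depth limits every gene with a few UMIs, nkx3.2 included.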

Other observations

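Some further genes, chosen among list members after their values were seen, concern lipid handling, although 16 of 33 genes of the lipid uptake list had no UMI in the chosen cells of either library. rbp4, a retinol carrier, stood at 5730 CPM in WT cells and 4080 CPM in mutant cells, against 1880 and 2090 CPM in other matn1-low cells, and its mutant-to-WT ratio was 0.712 (0.655 to 0.773) where matn1-high cells had 1.63. ptgdsb.1 and ptgdsb.2, paralogs of the lipocalin-type prostaglandin D synthase that may share reads, stood at 4310 and 3660 CPM in WT and 3990 and 3720 CPM in the mutant. lpl, lipoprotein lipase, stood at 141 and 198 CPM, 6.66 and 6.18 times other matn1-low cells, and was seen in 13 and 22 cells.

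Genes of tyrosine breakdown, a list added after values were seen, were also present. tat, tyrosine aminotransferase, stood at 357 CPM in WT cells and 510 CPM in mutant cells, against 109 and 113 CPM in other matn1-low cells, in 17 and 27 cells. tat was seen in 6 of the 13 WT and 13 of the 15 mutant cells with rgs5a. Over all chosen cells it was seen in 17 of 37 WT and 27 of 48 mutant cells, so the WT share with rgs5a was near its share over all. Many pairs of genes were counted, and an association was not tested. Between libraries 7 of the 8 measured genes of the list were lower in the mutant, with a median log2 ratio of -0.37, beside -0.21 in other matn1-low and 0.34 in matn1-high cells.

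hand2, a transcription factor of the ventral pharyngeal arches, stood at 80.5 and 108 CPM against 36.5 and 24.6 CPM in other matn1-low cells. Its WT UMIs were too few for it to be measured. Of 32 arch and jaw patterning genes 1 was measured, and 0 were at least 2-fold higher. The summed level of that list was 528 CPM in WT cells and 762 CPM in mutant cells, against 712 and 698 CPM in other matn1-low cells. No UMI was counted for 19 of 26 Hox genes in the chosen cells of either library, and the share of all genes at 0 is not given here. The summed Hox level was 45.3 CPM in WT cells and 57.5 CPM in mutant cells, against 95.1 and 107 CPM in other matn1-low cells.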
